A study of Homo sapiens with 6 samples.

Results

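Cadherins are membrane proteins whose extracellular repeats bind calcium and hold neighbouring cells together. The family was taken as every protein-coding gene in the GENCODE annotation whose symbol is CDH followed by a number or begins with PCDH. This gave 89 genes among the 63140 genes measured. Of these, 18 were classical cadherins, 53 were clustered protocadherins and 18 belonged to neither group. At least 1 read was assigned to 74 of them, and 34 had a mean expected count of 10 or more over the 6 libraries. An expected count is the number of reads that the quantification program assigns to a gene after sharing out reads that could come from several transcripts. The values just inside that limit were 14.7 for PCDHA11 and 15.1 for PCDHB3, and the highest value outside it was 8.3 for PCDHB4.

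The cells were BT-549, an established line of triple negative breast cancer, wild type in every sample. They were grown for 24 h either in adipocyte-conditioned medium (ACM) or in unconditioned medium (UCM), with 3 replicates of each, and polyA RNA was sequenced. The conditioned medium was the medium with added insulin and oleate in which mouse OP9 cells had been differentiated into adipocytes, collected from those cells. GEO's labels give its strength as 50%, whereas the study's methods describe undiluted ACM for this experiment, and the composition of UCM was not given in the sources used here. Substances secreted by adipocytes and differences between the media themselves therefore cannot be told apart. The study's methods describe cells grown and lysed in the wells of a plate and do not give separate passages or days for the replicates, so the p-values measure the spread between these samples, which may be technical.

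Classical cadherins bind the same cadherin on the next cell and connect through beta-catenin, p120-catenin and alpha-catenin to actin. Epithelial cells are held together mainly by E-cadherin (CDH1), whereas N-cadherin (CDH2) and cadherin-11 (CDH11) are typical of mesenchymal cells, and a change from the former to the latter is a well known feature of invasive carcinoma. Protocadherins do not bind beta-catenin. Most lie in the alpha, beta and gamma clusters, where each gene has its own promoter and a large exon of its own, and neurons use different combinations of them as cell surface identity labels. The non-clustered delta protocadherins signal mainly to the actin cytoskeleton.

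Total expected counts per library were between 17135288 and 21053257. The 2 libraries numbered replicate 1 stood apart from the other 4 on the second principal component, with scores of 22.26 in ACM and 29.79 in UCM against -21.48 to -7.84 elsewhere. Results were therefore also computed without both. The cell type label is epithelial, but the defining epithelial genes were almost silent. EPCAM was listed at 0 in 5 of 6 libraries, and the 8 epithelial markers summed to between 8.02 and 12.6 TPM (the authors' transcript level, corrected for length and library size), most of it from KRT7. The 6 mesenchymal markers summed to between 5400 and 6220 TPM. Of 5 adipocyte markers, ADIPOQ, CIDEC and LEP were listed at 0 in every library and the summed level did not exceed 0.33 TPM.

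The sequence of the clustered genes decides how far their reads can be told apart, so the exon junctions of members that the results turn on are shown first. All 3 clusters lie on the plus strand of chromosome 5 in GRCh38, the alpha genes at chr5:140786136-141012347, the beta genes at chr5:141051374-141249365 and the gamma genes at chr5:141330514-141512977. In the alpha and gamma clusters the transcript that the annotation marks as canonical for each gene joins its own first exon to shared downstream exons. In the lines below the last 30 bases of the gene's own exon are in lower case and the first 30 bases of the shared exon in capitals.
PCDHGA6, own exon ending at chr5:141376478-141376507: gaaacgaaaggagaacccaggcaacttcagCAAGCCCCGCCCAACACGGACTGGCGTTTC
PCDHGA9, own exon ending at chr5:141405347-141405376: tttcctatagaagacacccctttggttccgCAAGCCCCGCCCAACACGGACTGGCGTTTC
PCDHGB7, own exon ending at chr5:141420245-141420274: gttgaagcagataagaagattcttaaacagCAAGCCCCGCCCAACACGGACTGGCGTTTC
PCDHGC3, own exon ending at chr5:141478517-141478546: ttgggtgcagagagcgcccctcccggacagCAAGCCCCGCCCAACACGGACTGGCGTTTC
PCDHA12, own exon ending at chr5:140877810-140877839: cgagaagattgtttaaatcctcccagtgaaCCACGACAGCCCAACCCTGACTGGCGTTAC
PCDHA11, own exon ending at chr5:140871465-140871494: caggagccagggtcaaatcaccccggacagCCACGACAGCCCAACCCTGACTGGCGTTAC
The capitals were the same for the 4 gamma genes (chr5:141494807-141494836) and the same for the 2 alpha genes (chr5:140978949-140978978). The canonical transcript of every one of the 22 gamma and 15 alpha members continued into the shared exon of its cluster. The shared exons made up 2177 bases of each canonical gamma transcript and 2869 bases of each canonical alpha transcript. Junctions of other transcripts were not examined.

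A stretch of 150 bases, the length of 1 read, was therefore often not decisive. Stretches were pooled over all protein-coding transcripts of a gene. Only 73.0% of those of PCDHGA6 occurred in no other gene, and the share was 61.8% for PCDHGC3, 48.5% for PCDHA12 and 33.5% for PCDHGB4. The pooled shares depend on how many transcripts are annotated. In the transcript marked as canonical, the shared exons made up 45.4% of the bases for PCDHGA6 and 45.8% for PCDHGC3. The described beta genes, which are mostly single-exon genes without shared exons, ranged from 82.1% for PCDHB10 to 96.3% for PCDHB14. Classical and other members reached 100%, apart from CDH11 at 99.0%. Sequences were compared in the direction of transcription only. Exonic bases shared with antisense genes, such as 2354 in CDH13, 1602 in PCDH7 and 537 in CDH3, were thus not counted as shared. Values of single alpha and gamma genes are thus uncertain in the part that depends on how shared reads were divided.

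Most promoters of clustered genes carry a conserved element with the core CGCT. The letters CGCT were searched for on the sense strand of the 250 bases before the start given by RefSeq (GRCh38.p14). For members the first listed start of each gene was used, whereas the share of all promoters counted every listed start. CGCT was present in 45 of the 47 clustered promoters found in the reference (95.7%) and in 48.1% of all promoters. It was also present in 6 of 10 classical and 8 of 13 other promoters. On either strand the share was 95.7% for clustered, 100% for classical and 92.3% for other promoters, beside 64.8% of all promoters. Between 20 and 110 bases before the start it was found in 43 of 47 clustered promoters, against 25.0% of all promoters. The 100 bases before the start are shown for members at very different levels, with CGCT in capitals.
PCDHGC3, chr5:141475866-141475965: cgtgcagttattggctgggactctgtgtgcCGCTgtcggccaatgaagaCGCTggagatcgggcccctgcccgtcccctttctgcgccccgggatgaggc
PCDHGA6, chr5:141373791-141373890: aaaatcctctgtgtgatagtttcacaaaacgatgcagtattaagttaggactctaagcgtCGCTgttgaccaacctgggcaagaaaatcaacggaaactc
PCDHGA9, chr5:141402678-141402777: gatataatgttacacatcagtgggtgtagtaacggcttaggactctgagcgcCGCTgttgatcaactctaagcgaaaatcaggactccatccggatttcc
PCDHB2, chr5:141094515-141094614: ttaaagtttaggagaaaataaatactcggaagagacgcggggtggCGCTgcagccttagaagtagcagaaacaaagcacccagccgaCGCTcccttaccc
PCDHB3, chr5:141100373-141100472: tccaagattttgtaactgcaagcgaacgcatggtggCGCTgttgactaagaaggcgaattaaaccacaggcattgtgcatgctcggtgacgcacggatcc
PCDHA12, chr5:140875208-140875307: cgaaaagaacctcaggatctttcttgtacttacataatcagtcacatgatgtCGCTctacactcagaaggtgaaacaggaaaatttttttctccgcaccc
The match was nearly as common among clustered members under the count limit as among those described. It was present in 18 of 18 described clustered promoters and in 27 of 29 that were below the count limit. A match of 4 bases is a description of the letters and not a bound site.

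Most of the family's RNA came from 3 genes. CDH11, PCDHGC3 and CDH2 together held between 64.5% and 67.4% of the TPM summed over all members in each library. CDH11 was at 133, 125 and 138 TPM in ACM and at 136, 152 and 171 TPM in UCM. PCDHGC3, a gamma gene of the C type, was at 93.2, 106 and 94.9 TPM in ACM and at 103, 96.5 and 91.4 TPM in UCM. CDH2 was at 78.5, 72.2 and 79.4 TPM in ACM and at 87.9, 72.8 and 73.1 TPM in UCM. The groups of each gene overlapped, and the lowest library of CDH11 was above the highest of PCDHGC3, which in turn was above CDH2 in every library. CDH24, PCDHB2, CDH3, PCDHGA6 and CDH6 followed, with means over the 6 libraries of 26.8, 25.9, 25.7, 16.8 and 12.8 TPM, and the ranges of CDH24, PCDHB2 and CDH3 over the libraries overlapped. At the other end, 15 of the 34 members had means under 1 TPM, among them CDH1 with 0.24 to 0.73 TPM.

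**Figure D1:**
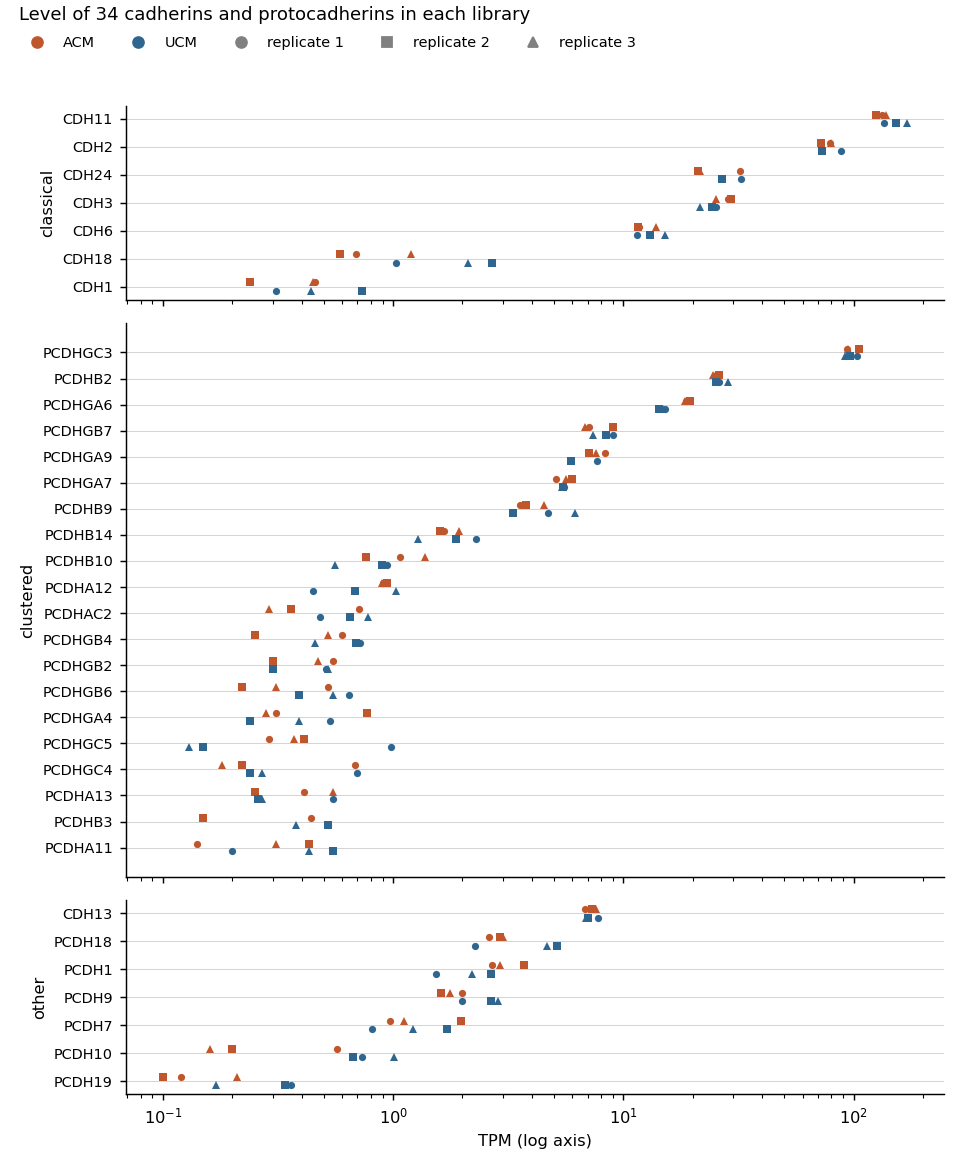
TPM (log axis) of the 34 members with a mean expected count of 10 or more, in each of the 3 ACM (orange) and 3 UCM (blue) libraries, with 1 symbol per replicate and members ordered by mean within each class. CDH11, PCDHGC3 and CDH2 lie near 100 TPM or above 70 TPM in every library, and 15 members have means under 1 TPM.

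The comparison of ACM with UCM asked which members responded to the adipocyte medium. Counts were tested with edgeR's quasi-likelihood test over all 14451 genes that passed the filter on low counts, and all 34 described members were among them. At an adjusted p of 0.05, PCDHGA6 was higher and CDH18 was lower in ACM, and no other member passed. These 2 calls are 5.88% of the members tested, beside 5.56% of all genes tested (3.35% higher and 2.21% lower), so the share of members called was close to that of all genes. Both genes were already known from an earlier look at these data and are not independent support for a change of the family. At an unadjusted p of 0.05, 4 members were higher and 6 lower, which is 29.4% of members beside 23.3% of all genes. In RNA from whole wells, fewer cells with a transcript and less of it per cell cannot be told apart. The median log2 fold change was -0.19 for the 7 classical, -0.08 for the 20 clustered and -0.31 for the 7 other members, and it was -0.01 for all genes. Fold changes were below 0 for 22 members and above 0 for 12, beside 7497 and 6954 of all genes.

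**Figure D2:**
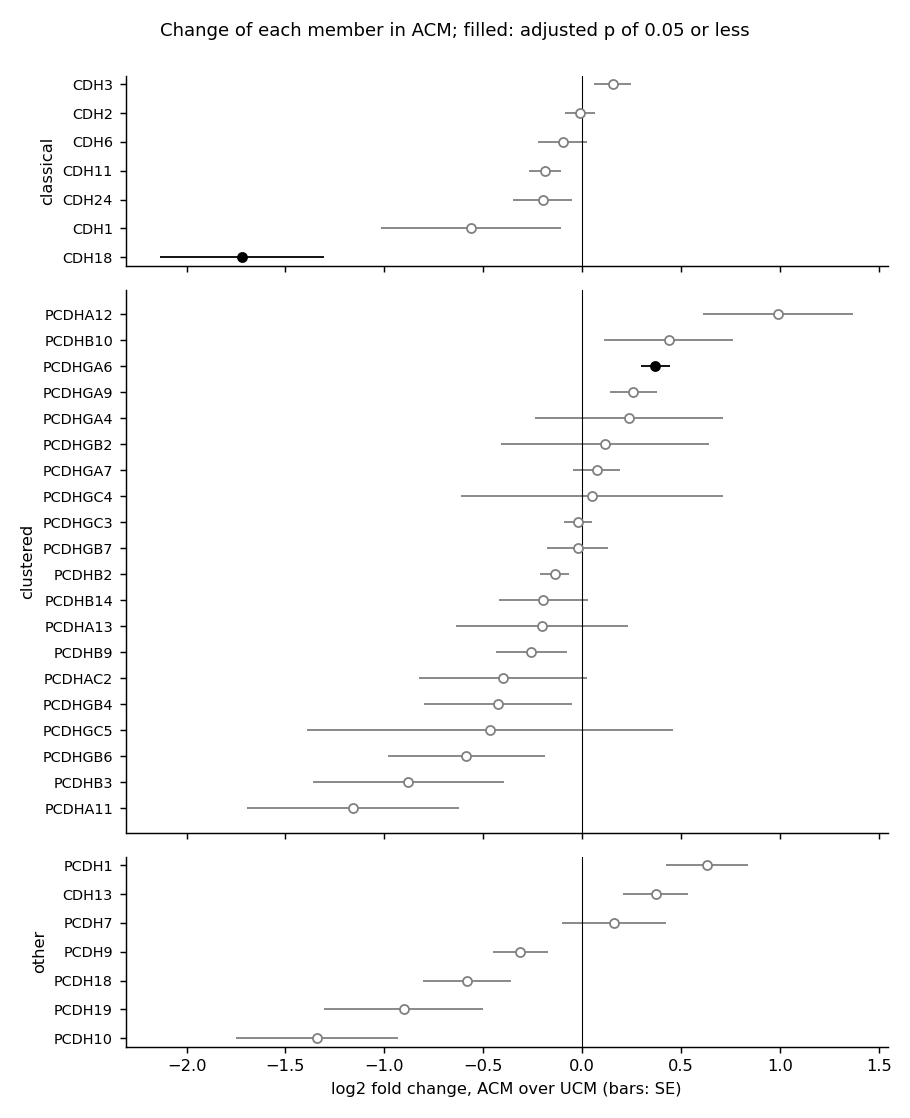
Log2 fold change of ACM over UCM with its SE for the 34 members tested, by class. Filled points are CDH18 (-1.72) and PCDHGA6 (0.37), which had an adjusted p of 0.05 or less, and open points did not.

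CDH18 encodes a type II classical cadherin known mainly from the nervous system. It lies on the minus strand at chr5:19471296-20575873. Its normalised read count (CPM, scaled to library size with TMM factors) was 0.713, 0.958 and 1.68 in the ACM libraries, against 2.04, 4.89 and 4.14 with UCM. All 3 ACM libraries were below all 3 UCM libraries, and the nearest values were ACM replicate 3 and UCM replicate 1. The log2 fold change was -1.72 with an SE of 0.41 and an adjusted p of 0.0418 by edgeR, or 0.304 of the UCM level. The gene had few reads, between 15 and 91 per library. Without ACM replicate 1 the adjusted p was 0.105, without ACM replicate 2 it was 0.169, without UCM replicate 2 it was 0.169 and without UCM replicate 3 it was 0.143. The log2 fold change stayed between -2.14 and -1.46 in the fits that left out 1 library. Without both replicate 1 libraries it was -1.75, with an adjusted p of 0.0103. Of 15 alternatives to the main fit, 8 called the gene. DESeq2 gave an adjusted p of 0.00294. The lowest adjusted p was 1.55e-05, by edgeR with a filter of 1 count in total. The highest was 0.185, by limma-trend on log2 TPM with 0.1 added.

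The result for CDH18 depended on the unit. The effective length, which the authors' program computes for each gene and library from the transcripts it assigns reads to, was 1461, 2245 and 2049 bases in ACM and 2862, 2566 and 2796 bases in UCM. It was shorter in every ACM library than in any UCM library. Divided by these lengths, the gene was at 0.69, 0.59 and 1.19 TPM in ACM and at 1.03, 2.69 and 2.12 TPM in UCM, and the groups overlapped. With the effective lengths as offsets in edgeR the log2 fold change was -1.22 and the adjusted p 0.175.

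No other classical member passed the test, and 6 of the 7 classical members, CDH18 included, had fold changes below 0. Summed over all classical members, CPM was 525.7 to 555.6 in ACM and 571.6 to 598.1 in UCM. TPM was also apart, at 260.0 to 284.8 and 292.5 to 309.9. Sums over the clustered and over the other members overlapped in both units. Over all members together, CPM was 1033 to 1050 in ACM and 1074 to 1085 in UCM. These sums were not tested. Most of the difference between the classical sums, with means of 544.5 CPM in ACM and 585.4 in UCM, lay in CDH11. That gene, which was not called, had means of 223.3 CPM in ACM and 254.4 in UCM. Means were 184.4 and 185.6 CPM for CDH2, and CDH3 was higher in ACM, at 43.8 and 39.3. Of the type II genes, CDH11, a cadherin of mesenchymal cells, was at 221, 218 and 231 CPM in ACM and at 225, 261 and 276 CPM in UCM. Only UCM replicate 1 overlapped with the ACM libraries. Its log2 fold change was -0.19 with an SE of 0.08 and an adjusted p of 0.194 by edgeR. Without UCM replicate 1 it was -0.26, with an adjusted p of 0.0377, but without UCM replicate 3 it was -0.11, with an adjusted p of 0.599, and the 4 other fits that left out 1 library did not call the gene either.

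CDH24, which also encodes a type II cadherin, was at 63.7, 43.5 and 44.6 CPM in ACM and at 63.7, 56.3 and 54.5 CPM in UCM. The 2 replicate 1 libraries had almost the same value, and in the other 4 the ACM values were below the UCM values. Over all 6 libraries the log2 fold change was -0.20 (SE 0.15, adjusted p 0.470 by edgeR), and without both replicate 1 libraries it was -0.32 (SE 0.08, adjusted p 0.0271). With 1 library left out it ranged from -0.39 without ACM replicate 1 to -0.10 without ACM replicate 2, with no call. CDH6, known from kidney, had a log2 fold change of -0.10 with an SE of 0.13.

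The type I genes did not pass the test in either direction. N-cadherin, CDH2, was at 188, 178 and 188 CPM in ACM and at 205, 178 and 174 CPM in UCM. The ACM values lay inside the range of UCM, and the log2 fold change was -0.01 with an SE of 0.08. P-cadherin, CDH3, was at 43.0, 49.0 and 39.2 CPM in ACM and at 38.2, 38.6 and 41.1 CPM in UCM. Its log2 fold change was 0.15 with an SE of 0.10 and an adjusted p of 0.372 by edgeR. In TPM its groups did not overlap, at 25.3 to 29.4 in ACM and 21.5 to 25.3 in UCM, but the lowest ACM and highest UCM library differed only in the second decimal. CDH3 shares 537 exonic bases with the antisense gene CDH3-AS1, which had a mean expected count of 40.6, and since the sources do not say that strand was used, reads from the shared bases cannot be told apart. E-cadherin, CDH1, had between 8 and 34 expected counts per library and a log2 fold change of -0.56 with an SE of 0.45. The remaining 11 classical members had mean counts of 3.8 (CDH4) or less, and 5 of them, CDH7, CDH8, CDH9, CDH12 and CDH19, were without a count.

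Among clustered protocadherins, PCDHGA6 was the member that passed the test. This gamma subfamily A gene (chr5:141373891-141512975) was at 60.5, 64.1 and 58.4 CPM in ACM and at 47.7, 46.5 and 47.4 CPM in UCM. Every ACM library was above every UCM library, by more than the spread within either group. The mean (± SD, n = 3) was 47.2 ± 0.645 CPM with UCM and 61.0 ± 2.90 CPM with ACM, and the log2 fold change was 0.37 with an SE of 0.07 and an adjusted p of 0.0189 by edgeR, or 1.29 times the UCM level. Its effective length was nearly constant, from 4561 to 4599 bases, and in TPM the groups were also apart, at 18.6, 19.5 and 18.4 in ACM and 15.1, 14.3 and 14.8 in UCM. Without ACM replicate 2 the adjusted p was 0.078, without UCM replicate 2 it was 0.107 and without UCM replicate 3 it was 0.0793, while the log2 fold change stayed between 0.33 and 0.40. By limma-trend on log2 TPM the adjusted p was 0.104. As shown above, 73.0% of the 150-base stretches pooled over this gene's transcripts were found in no other gene. In its canonical transcript, however, 45.4% of the bases lie in the shared exons. The division of reads from shared bases among gamma members was not tested.

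**Figure D3:**
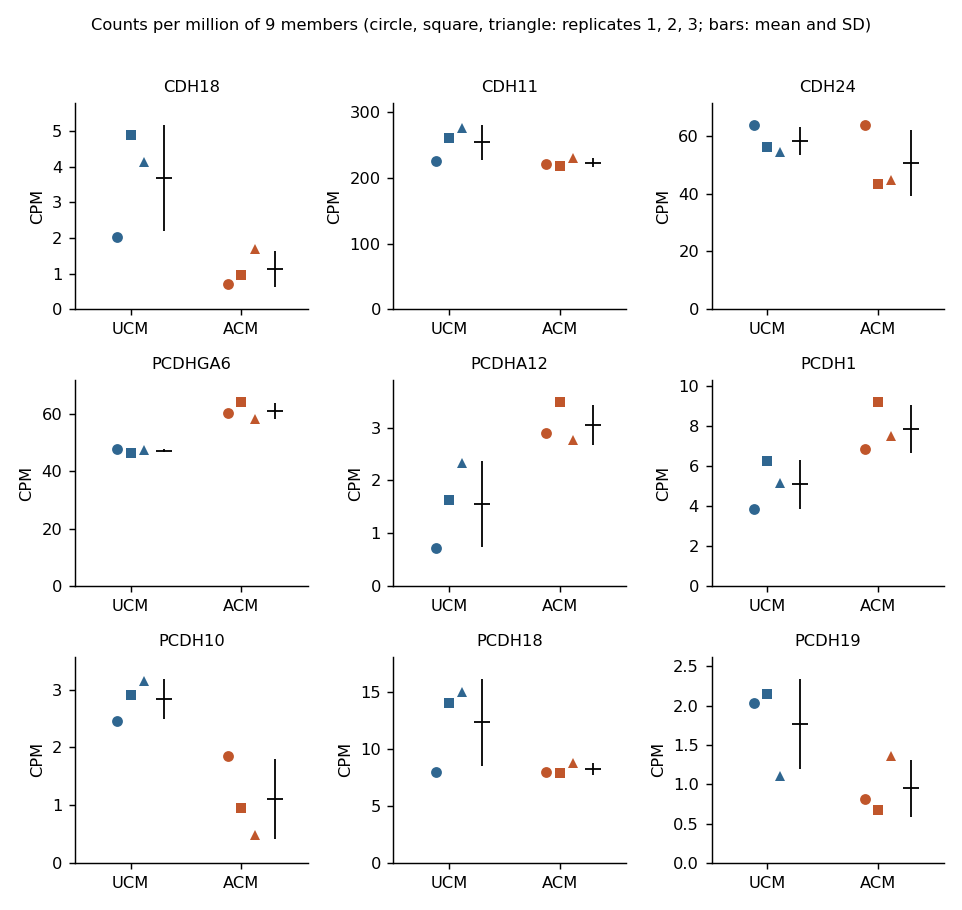
CPM of 9 members in each library, with the mean and SD of each group beside the points. PCDHGA6, PCDHA12 and PCDH1 have all 3 ACM libraries above all 3 UCM libraries, CDH18 and PCDH10 have them below, in CDH11 and PCDH18 UCM replicate 1 lies with the ACM values, and in CDH24 ACM replicate 1 lies with UCM replicate 1.

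For the gamma cluster as a whole the groups overlapped. The CPM of its 22 members added up to 377, 414 and 373 in ACM and to 400, 366 and 357 in UCM. The log2 ratio of the means was 0.05. PCDHGC3 supplied most of the reads, with 64.7% to 66.1% of the cluster's counts in ACM and 68.2% to 69.3% in UCM. PCDHGA6 supplied 15.5% to 16.0% in ACM and 11.9% to 13.3% in UCM. The shares of both genes did not overlap between the groups, in opposite directions, but shares add up to a fixed total, and the CPM of PCDHGC3 itself did not differ detectably. It was 244, 273 and 247 in ACM and 273, 253 and 247 in UCM, with a log2 fold change of -0.02 and an SE of 0.07. None of these sums and shares was tested.

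The other gamma genes gave a mixed picture, with 6 of the 11 described above 0 and 5 below. PCDHGA9, from the same subfamily as PCDHGA6, was at 26.5, 22.9 and 23.6 CPM in ACM and at 23.7, 18.8 and 18.5 CPM in UCM. Only UCM replicate 1 overlapped, and the log2 fold change was 0.26 with an SE of 0.12 and an adjusted p of 0.229 by edgeR. Without UCM replicate 1 it was 0.39, with an adjusted p of 0.0472, whereas the 5 other fits that left out 1 library did not call it, with the highest adjusted p of 0.529 without UCM replicate 2. PCDHGA7 and PCDHGB7 had log2 fold changes of 0.07 and -0.02 with SEs of 0.12 and 0.15.

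The 6 remaining described gamma genes had mean counts between 17 (PCDHGC4) and 32.5 (PCDHGB4), and single libraries moved them. PCDHGC5 had 64.1 expected counts in UCM replicate 1 and 4 to 21 in the other 5 libraries. PCDHGC4 had 34.3 in ACM replicate 1 and 34.05 in UCM replicate 1, but between 7 and 10.6 elsewhere. These high values belong to the libraries that stood apart, and no direction was read from either gene. The 11 gamma members under the limit reached mean counts of at most 6.9 (PCDHGA1).

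**Figure D4:**
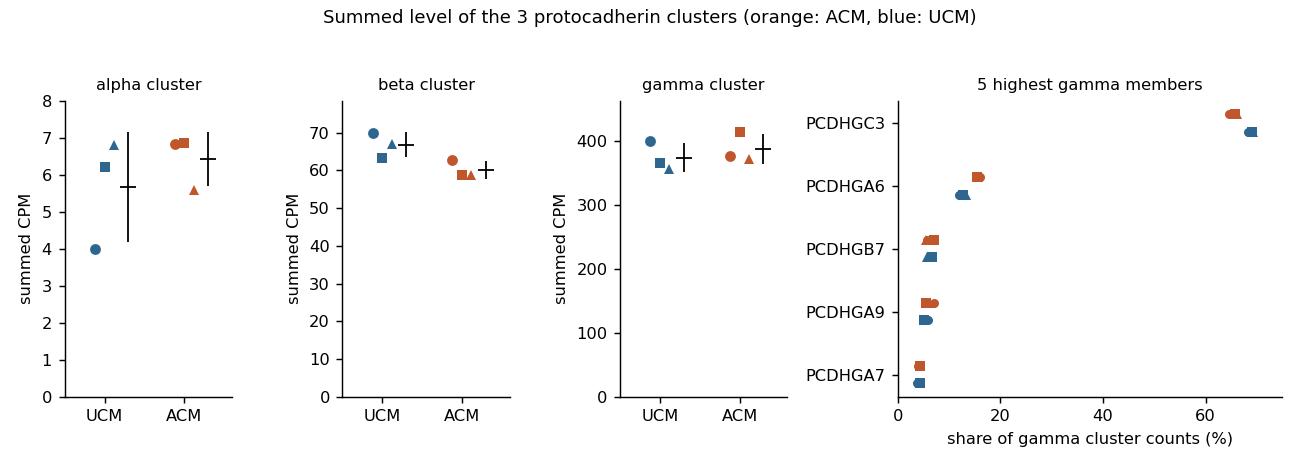
Left, CPM summed over all members of the alpha, beta and gamma clusters in each library, with the mean and SD of each group. Right, share of the gamma cluster's expected counts held by its 5 highest members, where PCDHGC3 is at 64.7% to 66.1% in ACM and 68.2% to 69.3% in UCM and PCDHGA6 at 15.5% to 16.0% and 11.9% to 13.3%.

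The alpha cluster was expressed near the limit of detection. Its 15 members summed to 5.60 to 6.87 CPM in ACM and 4.0 to 6.81 CPM in UCM, and 4 passed the limit. PCDHA12 was at 2.90, 3.48 and 2.76 CPM in ACM and at 0.711, 1.62 and 2.32 CPM in UCM. Every ACM library was above every UCM library, and the log2 fold change was 0.99 with an SE of 0.38 and an adjusted p of 0.148 by edgeR.

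In TPM this separation of PCDHA12 was lost. Its effective length was 4541, 5121 and 4502 bases in ACM and 2305, 3361 and 3217 bases in UCM, longer in every ACM library, and its TPM was 0.90, 0.94 and 0.89 in ACM and 0.45, 0.68 and 1.03 in UCM. UCM replicate 3 had the highest value of all. PCDHA11 had its fold change in the other direction, at 0.525, 0.620 and 0.326 CPM in ACM and 0.426, 1.33 and 1.56 CPM in UCM, with a log2 fold change of -1.16, an SE of 0.53 and an adjusted p of 0.225. Its effective length ranged from 1518 to 5131 bases over libraries that held between 6 and 26.7 expected counts. The canonical transcripts of both genes end in the same 2869 bases. How reads from these bases were divided between PCDHA12 and PCDHA11 cannot be told from these values. The C-type gene PCDHAC2 and PCDHA13 had log2 fold changes of -0.40 and -0.20 with SEs of 0.43 and 0.44.

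Values of the beta cluster were a little lower in ACM. Its 16 members summed to 62.8, 58.7 and 58.7 CPM in ACM and to 70.0, 63.3 and 67.0 CPM in UCM, so that every ACM library was below every UCM library, with a log2 ratio of the means of -0.15. In TPM the sums overlapped, at 33.06 to 33.15 in ACM and 32.7 to 37.5 in UCM. PCDHB2 held 72.7% to 76.8% of the cluster's counts. It was at 46.3, 44.7 and 44.9 CPM in ACM and at 50.9, 47.3 and 51.5 CPM in UCM, and all ACM values were below all UCM values by a small margin. Its log2 fold change was -0.14 with an SE of 0.07 and an adjusted p of 0.298 by edgeR. In TPM its groups overlapped, at 24.5 to 26.0 in ACM and 25.2 to 28.4 in UCM, and with effective lengths as offsets the log2 fold change was -0.04. PCDHB2 shares 1797 exonic bases with the antisense gene PCDHB1-AS1, which had a mean expected count of 156.8, so part of either gene's reads cannot be assigned without strand. PCDHB3 was at 0.957, 0.340 and 0.329 CPM in ACM and at 1.10, 1.14 and 0.822 CPM in UCM, with a log2 fold change of -0.88 and an SE of 0.48. Only ACM replicate 1 overlapped with UCM. PCDHB10 was the 1 described beta gene above 0, with a log2 fold change of 0.44 and an SE of 0.33, and PCDHB9 and PCDHB14 were at -0.26 and -0.20.

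No non-clustered protocadherin passed the test by edgeR, although 5 of the 6 described had an unadjusted p under 0.05, as did 23.3% of all genes tested. The delta-2 genes PCDH10, PCDH18 and PCDH19, whose cytoplasmic parts connect to the WAVE complex that drives actin branching, all had fold changes below 0. PCDH10 was at 1.85, 0.958 and 0.489 CPM in ACM and at 2.46, 2.90 and 3.15 CPM in UCM, and the groups did not overlap. The log2 fold change was -1.34 with an SE of 0.41 and an adjusted p of 0.0858 by edgeR. Its highest ACM value was that of replicate 1, and without ACM replicate 1 the log2 fold change was -1.96 with an adjusted p of 0.0289. In the 5 other fits that left out 1 library it was not called, with adjusted p-values from 0.0722 without UCM replicate 1 to 0.266 without ACM replicate 2.

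PCDH18 was at 7.94, 7.89 and 8.80 CPM in ACM and at 7.96, 14.0 and 15.0 CPM in UCM. UCM replicate 1 lay with the ACM libraries, and the other UCM libraries were far above them. The log2 fold change was -0.58 with an SE of 0.22 and an adjusted p of 0.153 by edgeR, and without UCM replicate 1 it was -0.81 with an adjusted p of 0.00635. In the 5 other fits that left out 1 library the gene was not called, and the smallest change was -0.41 without UCM replicate 3, with an adjusted p of 0.434. PCDH19, which lies on the X chromosome and is known for its role in an inherited epilepsy, was at 0.808, 0.676 and 1.36 CPM in ACM and at 2.04, 2.15 and 1.11 CPM in UCM. Here replicate 3 overlapped, and the log2 fold change was -0.90 with an SE of 0.40 and an adjusted p of 0.209. All 3 delta-2 genes had unadjusted p-values of at most 0.0476 and adjusted values above 0.05 in this fit by edgeR. DESeq2 called PCDH10 (adjusted p 0.038), and with a filter of 1 count in total edgeR called PCDH10 (0.00392) and PCDH18 (0.0108). The delta-2 genes PCDH8 and PCDH17 had mean counts of 1.8 and 0.5.

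The delta-1 genes had fold changes of both signs. PCDH1, known from airway epithelium, was at 6.84, 9.18 and 7.50 CPM in ACM and at 3.84, 6.24 and 5.13 CPM in UCM. The ACM libraries were all higher, and the log2 fold change was 0.63 with an SE of 0.21 and an adjusted p of 0.105 by edgeR. In TPM the groups were apart as well, at 2.69, 3.71 and 2.92 in ACM and 1.54, 2.65 and 2.20 in UCM. PCDH9 was at 11.4, 9.35 and 11.3 CPM in ACM and at 11.9, 13.5 and 14.5 CPM in UCM, lower in every ACM library, with a log2 fold change of -0.31, an SE of 0.14 and an adjusted p of 0.199. PCDH7 had a log2 fold change of 0.16 with an SE of 0.26, and its groups overlapped.

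T-cadherin, CDH13, is an unusual member without a cytoplasmic domain that is held in the membrane by a lipid anchor and binds adiponectin, a hormone of adipocytes. It was at 7.22, 9.13 and 8.15 CPM in ACM and at 6.55, 5.51 and 6.87 CPM in UCM. The groups were apart, and the log2 fold change was 0.37 with an SE of 0.17 and an adjusted p of 0.206 by edgeR. Its effective length was 1506, 1732 and 1549 bases in ACM and 1225, 1106 and 1438 bases in UCM, again apart. Its TPM was 6.79, 7.30 and 7.60 in ACM and 7.76, 7.03 and 6.85 in UCM, and the ratio of the mean TPM was 0.00 on the log2 scale. CDH13 shares 2354 exonic bases with the antisense gene CDH13-AS2, which had 43.7 to 82.9 expected counts per library.

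**Figure D5:**
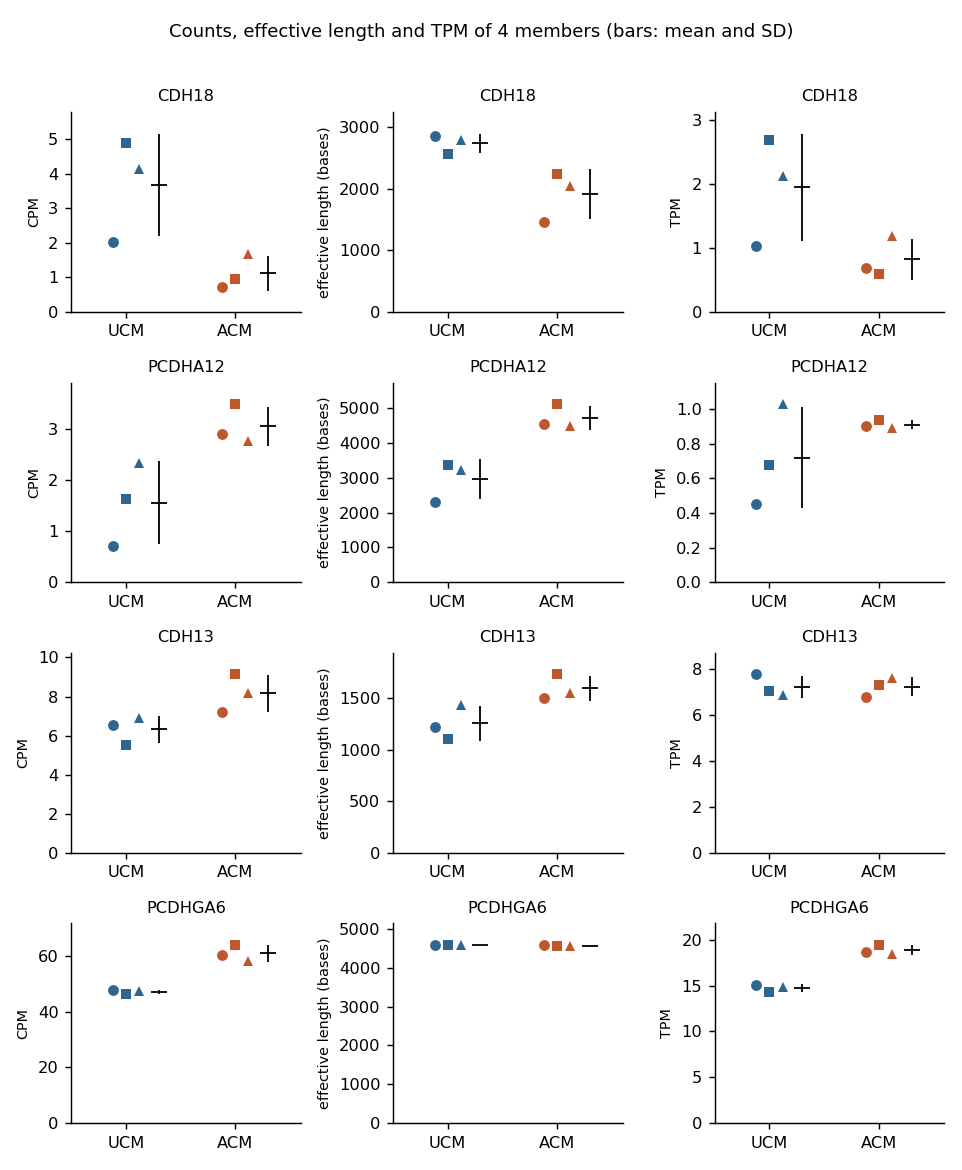
CPM, effective length in bases and TPM of CDH18, PCDHA12, CDH13 and PCDHGA6 in each library, with the mean and SD of each group. For CDH18, PCDHA12 and CDH13 CPM and effective length are both apart between the groups and TPM overlaps, whereas PCDHGA6 keeps an effective length of 4561 to 4599 bases and its TPM is apart.

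The groups of 8 of the 34 members did not overlap in CPM, 4 higher (PCDHA12, PCDHGA6, PCDH1 and CDH13) and 4 lower (CDH18, PCDHB2, PCDH9 and PCDH10). This is 23.5% of the members, beside 28.9% of all genes tested, of which 13.9% were higher and 15.0% lower. In TPM 5 members were apart (14.7%, beside 25.6% of all genes), namely CDH3, PCDHGA6 and PCDH1 higher and PCDH9 and PCDH10 lower. Effective lengths were apart for CDH18, PCDHA12 and CDH13 only, which is 8.82% of the members beside 9.19% of all genes. The highest effective length of a member was on median 1.24 times its lowest, beside 1.13 for all genes, and in 11 of the 34 members the ratio was 1.5 or more. PCDHA11 had the highest ratio, 3.38.

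Leaving out both replicate 1 libraries changed which members were called. In that comparison of 2 libraries with 2, edgeR called PCDHGA6 higher and CDH11, CDH18, CDH24, PCDH10 and PCDH18 lower. That is 1 higher and 5 lower calls among the 34 members tested there, beside 7.07% higher and 5.04% lower of its 14393 genes. PCDHGC4 was not among those 34, so they are not the same set as the members described. The part that the difference of the replicate 1 libraries plays in the results over all 6 libraries was not tested.

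Genes that cadherins work with were examined in the same fit. Of 57 partner genes 42 were tested, and 2 were higher and 1 lower in ACM at an adjusted p of 0.05 by edgeR, which is 7.14% of them beside 5.56% of all genes tested, and the median log2 fold change was 0.04. The main catenins that link classical cadherins to actin did not pass the test. Beta-catenin, CTNNB1, had a mean (± SD, n = 3) of 335 ± 6.22 CPM with UCM and 340 ± 5.09 with ACM, with a log2 fold change of 0.02. For alpha-catenin, CTNNA1, the log2 fold change was -0.05, and for p120-catenin, CTNND1, it was 0.18 (unadjusted p 0.0185, adjusted p 0.13 by edgeR). In CPM every ACM library was below every UCM library for CTNNA1 and above for CTNND1, and the groups of CTNNB1 overlapped. Groups were apart in 28.9% of all genes tested. CTNNAL1, alpha-catulin, a relative of alpha-catenin, was lower, at 98.8 ± 8.40 CPM in ACM and 130 ± 12.4 in UCM, with a log2 fold change of -0.39, an SE of 0.09 and an adjusted p of 0.0335.

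None of the 6 genes for proteases or protease subunits that process cadherins and protocadherins, such as FURIN and ADAM10, passed the test by edgeR. Of these, 1, NCSTN, had an unadjusted p under 0.05. None of the 9 genes of CTCF, cohesin and their regulators, which control promoter choice in the clusters, passed it either. SMC3 and STAG1 had unadjusted p-values of 0.0445 and 0.0206. Of 5 genes for cytoplasmic partners of protocadherins, 4 had fold changes above 0 and 1 below, and 0 passed. PTK2 and PTK2B had log2 fold changes of 0.18 and 0.55, with unadjusted p-values of 0.0197 and 0.0132 by edgeR. An unadjusted p under 0.05 was found for 23.3% of all genes tested. Among 25 further superfamily genes, CLSTN3, calsyntenin-3, was at 9.59 ± 1.33 CPM in ACM and 5.23 ± 0.930 in UCM, with a log2 fold change of 0.87, an SE of 0.18 and an adjusted p of 0.0243. CELSR1, a planar polarity cadherin, was at 15.2 ± 1.21 CPM in ACM and 9.93 ± 1.70 in UCM, with a log2 fold change of 0.61, an SE of 0.15 and an adjusted p of 0.0392. All 3 calls were lost without ACM replicate 1, UCM replicate 2 or UCM replicate 3, those of CTNNAL1 and CELSR1 also without ACM replicate 2 and those of CELSR1 and CLSTN3 also without ACM replicate 3. The log2 fold changes kept their direction in those fits, at -0.46 to -0.34 for CTNNAL1, 0.53 to 0.77 for CELSR1 and 0.76 to 1.03 for CLSTN3. With effective lengths as offsets they were -0.35 (adjusted p 0.115) for CTNNAL1, 0.87 (0.0918) for CELSR1 and 1.37 (0.0142) for CLSTN3. The highest adjusted p in those fits was 0.155 for CTNNAL1 without UCM replicate 3, 0.163 for CELSR1 without UCM replicate 2 and 0.112 for CLSTN3 without UCM replicate 2.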

How the data were processed

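Polyadenylated RNA of BT-549 cells was sequenced as paired-end reads of 150 bases (3 ACM and 3 UCM libraries). Per the labels and the study's methods, the authors used Trim Galore for trimming, STAR for alignment to GRCh38 and RSEM for quantification; versions and the annotation release are not given in the sources used here. The deposited gene tables hold expected counts, TPM and effective lengths. A deposited table of the authors' fold changes and p-values was not used.

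Genes were matched to GENCODE 44 by identifier, 62541 of 63140 without the version number. The members and gene lists were chosen with earlier results of these data known. Expected counts were rounded to whole numbers, filtered with edgeR's filterByExpr, scaled by TMM and tested with the quasi-likelihood test (edgeR 4.0.16, R 4.3.3) with Benjamini-Hochberg adjustment over 14451 genes at a threshold of 0.05. CPM used the same scaling. The SE of a log2 fold change by edgeR was its absolute size divided by the square root of the F statistic of that test. It therefore restates the test and is not a separate estimate. Cluster sums, shares and effective lengths were described without a test. The scripts were tested on simulated counts.

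Every member with a mean expected count of 10 or more was described. Values were given for members with an adjusted p of 0.05 or less, for the 3 highest in TPM and the 3 largest fold changes of each class, and for members whose groups did not overlap; other named members were chosen after their values were seen. Partner genes were named where the adjusted p was 0.05 or less, besides CTNNB1, CTNNA1 and CTNND1. Some others were named as examples or for an unadjusted p under 0.05. Alternatives were DESeq2 1.42.0, RLE factors, other filters (1 count in total, 10 in every library), limma-trend (limma 3.58.1) on log2 TPM with 1 or 0.1 added, effective lengths as offsets, a replicate block, and each library left out; leaving out both replicate 1 libraries was added after the data were seen. Intervals between libraries cover the spread between samples, and totals of 17135288 to 21053257 expected counts set the precision of members with few reads.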

Additional observations from a re-analysis of the deposited data

How the results depend on the processing

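The counts of called members were 1 higher and 1 lower in ACM. Of members higher in ACM, 3 were called with a filter of 1 count in total (74 members tested), 2 with the replicate block and 0 with limma-trend on log2 TPM at either added constant, where 1 had an unadjusted p under 0.05, against 1 by DESeq2. Of members lower, 2 were called by DESeq2, 2 with the block, 3 with the filter of 1 count, 5 without replicate 1 of both conditions, 0 with effective lengths as offsets in edgeR (3 at an unadjusted p under 0.05) and 0 with limma-trend (2 at an unadjusted p under 0.05). Leaving out 1 library gave 0 to 2 higher and 0 to 3 lower, and without ACM replicate 2, UCM replicate 2 or UCM replicate 3 edgeR called 0 members, with 1 to 4 higher and 2 to 3 lower at an unadjusted p under 0.05. Of partner genes, 2 higher and 1 lower became 1 higher and 0 lower with offsets and with limma-trend at both constants (2 lower at an unadjusted p under 0.05 in each), 4 higher without replicate 1 of both conditions, 2 lower with the block, and 0 to 3 higher and 0 to 1 lower without 1 library. With TPM in place of CPM, 2 members in place of 4 were apart and lower. The median log2 fold change of clustered members was -0.199 with the filter of 1 count, and -0.267 (without ACM replicate 1) to 0.046 (without UCM replicate 1) in the fits without 1 library. That of other members was -0.062 with 10 counts in every library, where fewer members were tested.

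Of the 34 members described, 10 changed sign in at least 1 of the 15 alternatives, none of them a member called in any fit. Of the 17 members named by rule, these were CDH2 and PCDHGC3. For CDH2 (-0.009) the log2 fold change was 0.00 with DESeq2 and RLE factors, 0.003 with offsets, 0.005 with 10 counts in every library, 0.069 without replicate 1 of both conditions, and -0.043 (without UCM replicate 3) to 0.078 (without UCM replicate 1) without 1 library. For PCDHGC3 (-0.020) it was 0.039 with offsets, 0.011 with limma-trend at both constants, 0.066 without replicate 1 of both conditions, and -0.072 (without ACM replicate 2) to 0.032 (without UCM replicate 1) without 1 library. Further calls were PCDH1 (adjusted p 0.0271) and PCDHA12 (0.0378) with the filter of 1 count, and PCDH1 (0.0244) and PCDH10 (0.0494) with the replicate block. Same-numbered libraries had deviations correlated at 0.318, 0.035 and 0.177, and the value for replicate 1 was the highest of all pairs. ACM replicate 3 correlated more with UCM replicate 2 (0.196) than with its own number. The numbers were not taken to pair the samples in the main fit. A difference shared by the replicate 1 libraries therefore stayed in the spread of that fit. With few reads per library, changes of the lowest members were not detectable at this depth unless large. The causes of these differences were not tested.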

Other observations

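Genes with family symbols outside the protein-coding class were mostly silent. The antisense genes PCDHB1-AS1, CDH13-AS2 and CDH3-AS1 had mean expected counts of 156.8, 59.2 and 40.6. Scaled to library size, CDH3-AS1 was at 2.23, 2.51 and 2.29 CPM with ACM and 1.52, 2.06 and 2.3 CPM with UCM, and the groups overlapped. The pseudogenes PCDHB19P and PCDHGB9P had mean counts of 1.3 each, and PCDHB17P was without a count.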
